A study of Mus musculus with 6 samples.

Results

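The Hox genes encode homeodomain transcription factors that lie in 4 clusters, Hoxa, Hoxb, Hoxc and Hoxd, on mouse chromosomes 6, 11, 15 and 2. All probes of the array whose annotated symbol is one of these letters followed by a group number were taken, without regard to their signals. This gave 57 probes of 45281 and 38 genes of 19057. The Hoxa cluster had 10 genes and 19 probes, Hoxb 10 genes and 15 probes, Hoxc 9 genes and 11 probes, and Hoxd 9 genes and 12 probes. For 25 genes there was 1 probe and for 13 there were several, so probes of 1 gene are not independent members.

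Wild-type mouse embryos of the CD-1 strain, labelled E8.5, were separated by enzyme and needles into surface ectoderm (SE), the future epidermis, and neural ectoderm (NE), the future brain and spinal cord, both taken at the level of the forebrain. Tissue of many embryos was pooled for each sample, so a sample is a pool and not an animal. The 3 SE and 3 NE pools were hybridised to 1-colour Illumina MouseWG-6 v2 arrays, 6 in all. The paper places the pooled embryos at an early somite stage. The study asked which signals and transcription factors set SE apart from NE. Hox genes already switched on at this stage bear on the axial level of what was dissected. Which of them were on elsewhere in the embryo was not measured, so an undetected posterior gene need not reflect the forebrain level. Arrays are numbered as in the labels. The study's own heat map shows NE replicates 2 and 3 the other way round, so single values of these 2 arrays may be exchanged, which does not touch a comparison of the tissues as a whole.

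In vertebrates the Hox genes are switched on in the order in which they lie along the chromosome, and the same order gives their anterior limits of expression along the body. Genes of the low-numbered groups reach into the hindbrain, the middle groups the neck and thorax, and the high-numbered groups the lumbar region, tail, genital ridge and limbs. The forebrain and midbrain lie in front of all of these limits. Genes of the same number in different clusters are paralogs, copies of 1 ancestral gene. Retinoic acid and the Cdx factors help to start their transcription, Polycomb proteins keep them silent and Trithorax proteins keep them active.

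The regulatory sequence next to the start site is shown for the 2 genes on which the tests below turn, Hoxa7 and Hoxa13, and for Hoxb1, a hindbrain gene that was detected on no array. Each is the 250 bases before the RefSeq start site (build GRCm38.p6), 5′ to 3′ on the strand of the gene. In the first pair capitals mark CG dinucleotides, and in Hoxb1 they mark TGATNNAT, a site of the kind bound by a PBX and HOX protein pair.
Hoxa7, chr6:52218574-52218823, minus strand: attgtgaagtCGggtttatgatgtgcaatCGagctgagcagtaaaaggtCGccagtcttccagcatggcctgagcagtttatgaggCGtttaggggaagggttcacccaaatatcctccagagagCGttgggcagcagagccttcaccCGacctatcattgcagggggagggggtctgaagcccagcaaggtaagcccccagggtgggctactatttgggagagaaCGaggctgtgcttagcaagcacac
Hoxa13, chr6:52260881-52261130, minus strand: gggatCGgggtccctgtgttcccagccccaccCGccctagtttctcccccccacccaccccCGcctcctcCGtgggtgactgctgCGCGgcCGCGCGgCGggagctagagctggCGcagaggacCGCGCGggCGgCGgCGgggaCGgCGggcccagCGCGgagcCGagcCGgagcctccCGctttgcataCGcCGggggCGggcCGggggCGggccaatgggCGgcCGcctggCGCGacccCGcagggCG
Hoxb1, chr11:96365508-96365757, plus strand: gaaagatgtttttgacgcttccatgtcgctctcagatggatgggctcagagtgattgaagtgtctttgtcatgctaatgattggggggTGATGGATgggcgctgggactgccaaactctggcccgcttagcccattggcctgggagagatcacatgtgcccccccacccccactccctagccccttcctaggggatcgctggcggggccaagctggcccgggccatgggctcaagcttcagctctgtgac

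The Hoxa13 window held 35 CG dinucleotides and 80.0% G or C, and the Hoxa7 window 7 and 54.8%. RefSeq windows were at hand for 22 of the Hox genes, 24 windows in all. Their median was 12.5 CG dinucleotides, with a range from 2 to 35, against a median of 6 over 32851 windows of all genes. Hoxa13, the only Hox gene detected on all 6 arrays, had the most CG dinucleotides of the 24 windows. The 4 windows of genes detected on at least 3 arrays had a median of 13 and an observed over expected ratio of 0.536, and the other 20 Hox windows 12.5 and 0.757. Hoxb1 held 1 copy of TGATNNAT, which on both strands was found in 4 of the 24 Hox windows (16.7%) and in 7.68% of all windows. The half-site of retinoic acid receptors, AGGTCA, was found on either strand in 6 of 24 (25.0%), those of Hoxb4, Hoxc4, Hoxd3, Hoxd4, Hoxd8 and Hoxd10, against 14.0% of all windows. TATAAA was found in 4 of 24 (16.7%) against 12.4%. No match of 1 of these 3 motifs overlapped a match of another in the Hox windows. A match describes the letters only and is not a site shown to be used.

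At the level of the forebrain most of the Hox genes were not told apart from background in either tissue. A probe is called detected on an array where its detection p, the rank of its signal among the negative control probes of that array, is under 0.05. By this definition 5% of probes that behave like the negative controls pass. Of the 342 pairs of a Hox probe and an array, 33 were detected (9.65%), against 42.3% over all probes of the array. With a detection p under 0.01, which 1% of negative controls pass, 13 pairs remained (3.80%), against 38.2% over all probes. SE and NE had nearly the same number, 16 and 17 of 171 pairs.

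**Figure D1:**
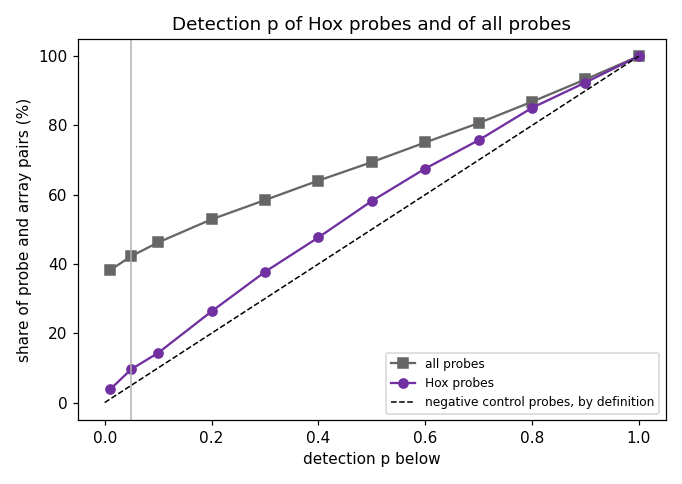
Share of probe and array pairs (vertical axis, percent) whose detection p lies below the value on the horizontal axis, for Hox probes (circles), all probes (squares) and negative control probes by definition (dashed line); the grey line marks 0.05. At 0.05 the Hox probes stood at 9.65% and all probes at 42.3%, and at 0.5 the Hox probes stood at 58.2%.

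Of the 57 Hox probes, 47 were detected on no array and 10 on at least 1 (over all probes 51.2% were detected on at least 1). On at least 3 arrays 7 Hox probes were detected (43.3% of all probes), and 1 on all 6 (35.4% of all probes). By gene, 29 of 38 were detected on no array and 9 on at least 1 (63.3% of all genes), 6 of them by 1 probe on at least 3 arrays (55.6% of all genes). Raw signals of Hox probes ran from 42.0 to 88.3, with a median of 58.2, in the scanner's arbitrary units. On the 6 arrays the median signal of undetected probes was 54.4 to 57.7, and the lowest signal called detected was 66.8 to 70.2. The Hox median thus lay just above the medians of undetected probes, and few Hox signals reached the level called detected. The number of Hox probes detected was 3, 6 and 7 on SE arrays 1, 2 and 3 and 7, 4 and 6 on NE arrays 1, 2 and 3, so that the tissues overlapped. Hoxa13 and Hoxc10 were the 2 genes that 1 probe detected on all 3 SE arrays (50.4% of all genes were), and Hoxa13 and Hoxa7 the 2 detected on all 3 NE arrays (50.2%).

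By paralog group, 8 of the 13 groups had a detected member, and 6 had a member detected on at least 3 arrays. No member of groups 5, 6, 8, 9 and 12 was detected on any array. In groups 1 to 4, whose genes reach into the hindbrain, 12 of 114 pairs of a probe and an array were detected (10.5%), 6 in each tissue. In groups 5 to 9 it was 3 of 114 (2.63%), all of them in NE, and in groups 10 to 13, genes of the rear of the body, 18 of 114 (15.8%), 10 in SE and 8 in NE. The shares did not fall from the front groups to the rear groups, and the rear groups' 18 pairs came from 4 genes, of which Hoxa13 alone gave 11. Each band had 19 probes. By cluster, 18 of 114 pairs were detected for Hoxa, 4 of 90 for Hoxb, 8 of 66 for Hoxc and 3 of 72 for Hoxd.

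**Figure D2:**
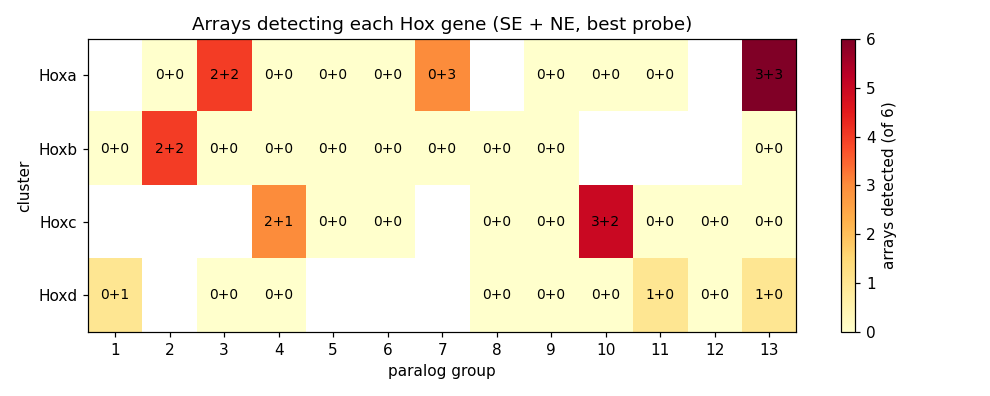
Hox genes by cluster (rows) and paralog group (columns), with the number of SE plus NE arrays on which the most often detected probe was detected; colour gives the sum, from 0 to 6. White cells hold no gene analysed here. Of the 38 genes 29 stand at 0, and Hoxa13 is at 3 in each tissue.

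Among the anterior genes, group 1 had Hoxd1, detected on NE array 1 only, and Hoxb1, a gene of a single hindbrain segment, detected on none. Signals of the 2 Hoxb1 probes lay between 52.5 and 66.6 over the 6 arrays. Of group 2, genes of the second branchial arch and hindbrain, Hoxb2 was detected on SE arrays 2 and 3 and NE arrays 1 and 3, and Hoxa2 on none. Of group 3 Hoxa3, which patterns the posterior pharyngeal arches, was detected on SE arrays 2 and 3 and NE arrays 1 and 2, and Hoxb3 and Hoxd3 on none. Of group 4 Hoxc4 was detected on SE arrays 2 and 3 and NE array 3, and Hoxa4, Hoxb4 and Hoxd4 on none. None of these 4 genes was detected on every array of a tissue.

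The middle groups held a single detected gene, Hoxa7 of group 7, on all 3 NE arrays and on no SE array. Hoxb7, the other member of that group, was detected on none. The genes of group 5 (Hoxa5, Hoxb5, Hoxc5), group 6 (Hoxa6, Hoxb6, Hoxc6), group 8 (Hoxb8, Hoxc8, Hoxd8) and group 9 (Hoxa9, Hoxb9, Hoxc9, Hoxd9) were detected on none. Of these, Hoxb6 and Hoxd8 came nearest to the threshold, with lowest detection p values of 0.0508 and 0.0530.

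Among the posterior genes, Hoxc10 of group 10 was detected on all SE arrays and on NE arrays 1 and 3, and Hoxa10 and Hoxd10 on none. Hoxd11 of group 11, a limb and kidney gene, was detected on SE array 3 only, and Hoxa11 and Hoxc11 on none. Hoxc12 and Hoxd12 were detected on none. In group 13, the genes of digits and the genital tubercle, Hoxa13 was detected on all 6 arrays, Hoxd13 on SE array 3 only, and Hoxb13 and Hoxc13 on none. Just inside the threshold were Hoxa3 on SE array 2 (detection p 0.0480) and both Hoxa3 and Hoxd1 on NE array 1 (0.0468 each).

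Hoxa13 was the Hox gene detected most often. Probe A of Hoxa13 had signals of 80.1, 88.3 and 88.2 on SE arrays 1, 2 and 3 and of 84.4, 70.2 and 74.9 on NE arrays 1, 2 and 3. It was detected on all 6, and the tissues overlapped, NE array 1 lying within the SE range. Probe B had signals of 74.1, 77.6 and 66.4 in SE and 73.2, 73.4 and 73.4 in NE and was undetected on SE array 3 only. The third probe of the gene, with signals from 52.4 to 62.9, was detected on none, so that the 3 probes of Hoxa13, all annotated to its RefSeq mRNA, disagreed.

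The tissues were compared with limma on background-corrected, quantile-normalized log2 values, over the 19590 probes detected on at least 3 arrays, with p-values adjusted over all of them. Of the 7 Hox probes that could be tested, 1 passed an adjusted p of 0.05 (37.3% of all tested probes did). By gene, 0 of 6 were higher in SE (18.7% of all tested genes) and 1 of 6 was higher in NE (21.6%). Probe A of Hoxa13 had a mean log2 value of 5.50 ± 0.15 in SE and 5.11 ± 0.32 in NE (SD, n = 3), a difference of 0.39 with a standard error of 0.16, and did not pass (adjusted p = 0.0999). Probe B differed by -0.02 (standard error 0.14, adjusted p = 0.925). Without NE replicate 1, probe A of Hoxa13 was higher in SE by 0.57 on the log2 scale, with an adjusted p of 0.0112, so this call rests on that array.

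Hoxa7 was the gene that passed. Its signals were 59.8, 63.7 and 58.2 on SE arrays 1, 2 and 3 and 66.9, 68.9 and 71.1 on NE arrays 1, 2 and 3. The NE arrays all lay above the SE arrays, as was so for 51.0% of all tested probes in one direction or the other. Each NE signal was close to the lowest that its array called detected, with detection p values of 0.0458, 0.0422 and 0.0335, and each SE signal was under that level. The mean log2 value was 4.49 ± 0.10 in SE and 4.81 ± 0.02 in NE (SD, n = 3), and limma gave a difference of -0.33 with a standard error of 0.079 (adjusted p = 0.0143). No fold is given, because SE was not above background on any array and the lower bound of the fold was under 1. The call was lost and the difference shrank to -0.16 without background correction (adjusted p = 0.0533), to -0.14 with the larger offset of 50 (adjusted p = 0.0983) and to -0.10 in the deposited scaled values (adjusted p = 0.237). Without any 1 of the 3 NE arrays the gene fell below the minimum of 3 arrays and was not tested.

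The other tested genes did not pass. Hoxc10 had signals of 73.8, 71.3 and 70.3 in SE and of 71.3, 55.4 and 83.9 in NE. Its NE arrays held both the lowest and the highest value, and the log2 difference was 0.06 with a standard error of 0.22 (adjusted p = 0.865). Its other probe, with signals from 49.7 to 60.3, was detected on no array.

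Hoxc4 had signals of 62.1, 73.9 and 70.4 in SE and of 60.9, 52.0 and 70.7 in NE, with a log2 difference of 0.26 and a standard error of 0.16 (adjusted p = 0.239). Hoxb2 had 60.6, 71.2 and 70.5 in SE and 67.2, 58.8 and 76.4 in NE, with a difference of -0.01 and a standard error of 0.17 (adjusted p = 0.982). In Hoxb2, Hoxc4 and Hoxc10 alike NE array 2 was the lowest of the 6 and SE array 1 was below detection for Hoxb2 and Hoxc4. Hoxa3 had 62.8, 69.7 and 75.1 in SE and 66.9, 70.5 and 67.3 in NE, with a difference of 0.05 and a standard error of 0.13 (adjusted p = 0.771). The Hoxa3 probe that was detected is the 1 of its 4 that the platform does not annotate to the RefSeq mRNA, and the 3 that it does were detected on no array, at signals from 43.5 to 64.0. Hoxa13, Hoxa3, Hoxc10 and Hoxd11 were the genes with several probes of which some were detected, and in none of them were all probes detected.

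**Figure D3:**
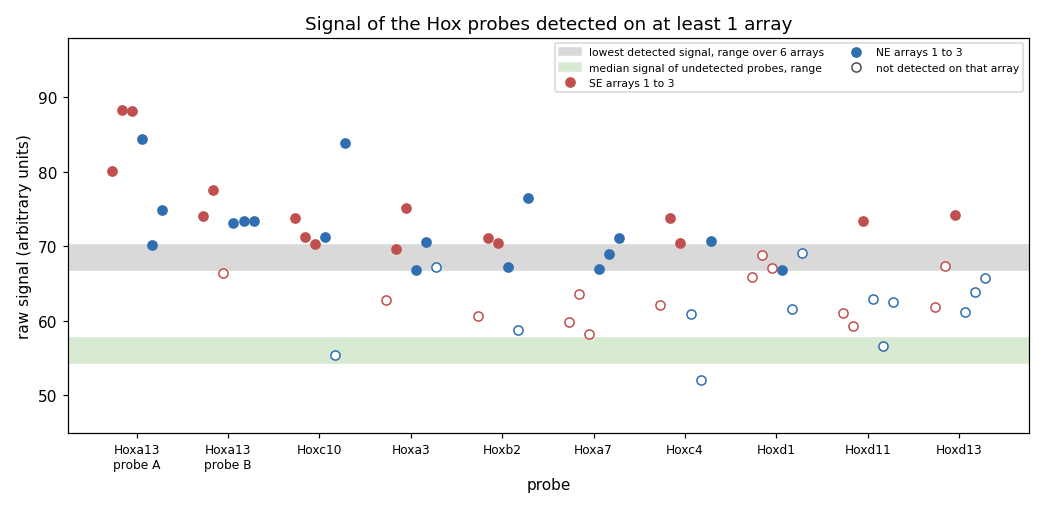
Raw signal (vertical axis, arbitrary units) of the 10 Hox probes detected on at least 1 array, SE arrays 1 to 3 and NE arrays 1 to 3 from left to right within each probe; filled points are detected and open points are not. The grey band is the range over arrays of the lowest detected signal (66.8 to 70.2) and the green band that of the median undetected signal (54.4 to 57.7); probe A of Hoxa13 reaches 88.3, the highest Hox signal.

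Without the filter on detection, all 57 Hox probes were tested among 45281. Hoxa7 was again the only Hox probe to pass an adjusted p of 0.05 (15.3% of all probes did). In bulk tissue, fewer cells with a transcript and less of it per cell cannot be told apart, and a level under background here is not a proof of absence.

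The genes on either side of the clusters were detected more often than the Hox genes. RefSeq places 5 protein-coding genes on each side of each cluster, 40 in all, of which 36 were analysed. With the most often detected probe of each gene, 25 of these 36 (69.4%) were detected on all 6 arrays, against 1 of the 38 Hox genes and 47.2% of all genes. Beside Hoxd it was only 4 of 9, with 3 detected on no array and a median signal of 71.7. Skap2, a gene of a Src kinase adaptor beside the anterior end of Hoxa, had mean signals of 311 in SE and 386 in NE, and Evx1, a homeobox gene of the primitive streak beside Hoxa13, had 108 and 107. Neither passed limma's test between the tissues (adjusted p = 0.181 and 0.623), and both were detected on all 6 arrays.

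Copz2, a subunit of the COPI vesicle coat on the Hoxb side, was higher in SE by 1.82-fold (adjusted p = 0.00172), and Snx10, a sorting nexin on the Hoxa side, was higher in NE by 1.74-fold (adjusted p = 0.000285). Of the 26 flanking genes tested 5 were higher in SE and 3 in NE, where over all tested genes it was 18.7% and 21.6%. Cbx5, which encodes a heterochromatin protein and lies beside Hoxc, was higher in NE by 1.32-fold (adjusted p = 0.00531).

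Not every neighbour was detected. Evx2 beside Hoxd13, Ttll6 beside Hoxb13, Nfe2, Chn1 and Hnrnpa3 were detected on no array. Hnrnpa3 encodes an RNA-binding protein found in most cells and had 3 probes, so that an undetected probe of this array can belong to a gene in wide use. Of 31 noncoding genes annotated inside the clusters 2 were analysed, Gm53 in Hoxb and Hoxd3os1 in Hoxd, and both were detected on no array.

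**Figure D4:**
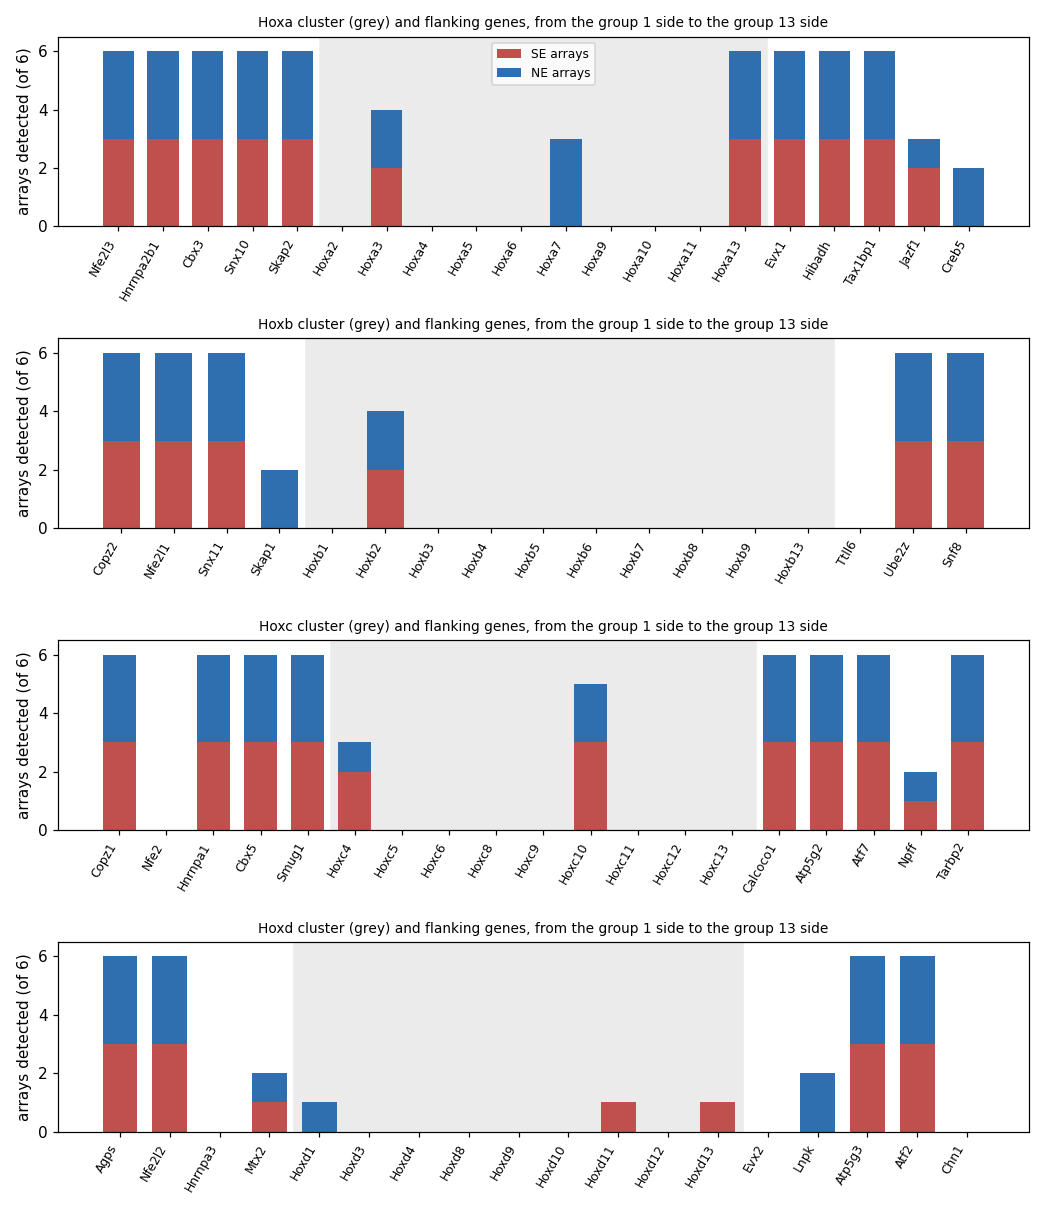
Number of arrays (vertical axis, of 6) on which the most often detected probe of each gene was detected, SE in red and NE in blue, along each cluster (grey) and its analysed flanking protein-coding genes; spacing is not to scale. Of the 36 flanking genes 25 reach 6, and of the 38 Hox genes Hoxa13 alone does.

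The cofactors of the PBX, MEIS and PKNOX families bind DNA together with Hox proteins. Of these 8 were tested, and all 8 were detected on all 6 arrays (47.2% of all genes were). Among them 3 were higher in SE (18.7% of all tested genes were), Pbx3 by 2.02-fold, Meis1 by 1.87-fold and Meis2 by 1.80-fold (adjusted p = 0.000294, 0.000514 and 0.000146). Pknox2 was higher in NE by 1.24-fold (adjusted p = 0.0354), where 21.6% of all tested genes were, and the other 4 did not pass. The median log2 difference of the 8 was 0.11.

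Of the genes of retinoic acid and other upstream regulators 17 were analysed, of which 9 were detected on all SE arrays and 8 on all NE arrays (50.4% and 50.2% of all genes). Cyp26b1, Rdh10 and Cdx4 were detected on no array, and Rxrg, Dhrs3 and Cdx2 on 1 each. Of the 11 that could be tested 5 were higher in SE and 1 in NE, against 18.7% and 21.6% of all tested genes. Aldh1a2, the main enzyme of retinoic acid synthesis in the early embryo, was at least 3.78-fold higher in NE (adjusted p = 9.89e-07) and was not well above background on any SE array. Crabp1, which binds retinoic acid in the cytoplasm, was higher in SE by 5.22-fold (adjusted p = 0.000146), and the receptor Rarb by 2.31-fold (adjusted p = 0.000782). Cyp26a1, which breaks retinoic acid down, was higher in SE by 2.14-fold (adjusted p = 0.000531). The receptors Rarg and Rara were the other members higher in SE. The median log2 difference of the 11 was 0.20.

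The ParaHox genes, the sister family of the Hox genes, were also mostly undetected. Of 6 analysed, Cdx4, Gsx1, Gsx2 and Pdx1 were detected on no array and Cdx2 on 1 NE array. Over all genes 63.3% were detected on at least 1 array and 47.2% on all 6. Cdx1, which activates Hox genes of the trunk, was detected on all 6 with mean signals of 76.9 in SE and 74.1 in NE, and did not pass (adjusted p = 0.509).

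All 12 Trithorax and other activating chromatin genes were detected on all arrays of both tissues (47.2% of all genes were). Kmt2a, the MLL methyltransferase that maintains Hox expression, was higher in NE by 1.73-fold (adjusted p = 0.00212), and its chromatin partner Psip1 by 1.66-fold (adjusted p = 0.000478). The other 10 did not pass, so 2 of 12 were higher in NE and 0 in SE, where over all tested genes it was 21.6% and 18.7%. The median log2 difference was -0.11.

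Of the Polycomb genes, which keep Hox clusters silent, 21 were analysed and 19 tested, 4 of them higher in SE and 5 in NE, near the 18.7% and 21.6% of all tested genes. Phc3 was higher in NE by 1.67-fold and Suz12 by 1.40-fold (adjusted p = 0.00383 and 0.00320), and Phf19 was higher in SE by 1.60-fold (adjusted p = 0.00953). Suz12 is a core subunit of the complex that methylates histone H3, and Rbbp7 a histone-binding subunit of it. Rbbp7 was higher in SE by 1.40-fold (adjusted p = 0.00613), so that these subunits differed in opposite directions. Jarid2 and Phf1 were detected on no array, and the median log2 difference of the 19 was 0.01. Over all genes tested the median log2 difference was -0.02.

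Markers of the forebrain level that the study states for its dissection were also looked at. No tissue of another level was on the arrays, so a difference between SE and NE cannot test that level. Of 12 forebrain markers analysed 9 were tested and all 9 were higher in NE (21.6% of all tested genes were). Among them were Lhx5 by at least 37.8-fold, Rax by at least 25.1-fold, Fezf2 by 14.1-fold and Lhx2 by at least 6.68-fold. Six6, Emx2 and Pax6 were detected on no array. All 9 surface ectoderm markers tested were higher in SE (18.7% of all tested genes were). All 8 neural ectoderm markers tested were higher in NE, but 5 of these 8 (Hesx1, Lhx2, Otx2, Rax and Six3) are also among the forebrain markers.

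Some markers of regions behind the forebrain were higher in NE as well, the tissue in which Hoxa7 was higher. Of 10 markers of midbrain and hindbrain 6 were tested and 3 were higher in NE (21.6% of all tested genes were). They were En1 by 26.9-fold, En2 by 6.52-fold and Wnt1 by at least 3.12-fold, all of them genes of the midbrain and its border with the hindbrain. The summed signal of the list was 954 to 1128 on the SE arrays and 2131 to 4394 on the NE arrays. On NE arrays 1, 2 and 3 En1 had signals of 882, 2256 and 925 and En2 of 181, 629 and 246. Gbx2 had 261, 618 and 188. NE array 2, the highest for these 3 genes, was the lowest for Hoxb2, Hoxc4 and Hoxc10. A link between these signals and those of the Hox genes was not tested. Egr2, which marks hindbrain segments and activates Hoxb2 there, had mean signals of 66.0 in SE and 74.8 in NE and did not pass (adjusted p = 0.272). Its highest signal was on NE array 1. Atoh1 and Pax5 were detected on no array.

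Of 12 trunk and tail markers analysed 7 were tested. Higher in NE were 3 of them (Wnt3a by 5.96-fold, Fgf17 by 1.73-fold, and Sp5 with an adjusted p of 0.00874), and 1, Cyp26a1, was higher in SE. Over all tested genes 21.6% were higher in NE and 18.7% in SE. Evx1, Cdx1 and Nkx1-2 did not pass. The summed signal of the list was 1445 to 1488 in SE and 1980 to 2272 in NE. Its largest gaps in mean signal were those of Sp5 (545 in SE and 865 in NE) and Wnt3a (99.0 and 410). Of the list, 6 genes were detected on all SE arrays and 7 on all NE arrays, Evx1, Cdx1 and Cyp26a1 among them, and Nkx1-2 was detected on 2 SE and 3 NE arrays. Tbx6, Cdx4, Wnt8a and Gdf11 were detected on no array, and Cdx2 on 1. Whether Wnt3a, Fgf17 and Sp5 came from trunk cells or from other cells of the NE pools was not tested. Whether the NE pools held cells of the hindbrain or trunk, and any part of such cells in the Hoxa7 difference, was not tested either.

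Most tested markers of other cell types were higher in SE, although the dissection was meant to leave cephalic mesenchyme out. Over all tested genes, for this and the lists below, 18.7% were higher in SE and 21.6% in NE. All 8 cephalic mesenchyme markers tested of 12 analysed were higher in SE, with a summed signal of 3063 to 3944 in SE and 996 to 1145 in NE. Col1a1, Col1a2 and Foxc2 were detected on no array. Of 5 trunk mesoderm markers tested 4 were higher in SE, Meox1 by at least 1.57-fold, Pax3 by 1.56-fold, Uncx by at least 1.14-fold and Osr1 by at least 1.10-fold. The summed signal was 643 to 683 in SE and 573 to 605 in NE. The median probe signal of this list was 61.3, under the lowest signal called detected (66.8 to 70.2), so the sums were mostly background. The somite gene Meox1 was detected on all SE arrays and no NE array, and 5 of the 10 genes analysed, Tcf15 among them, on no array. Neural crest markers were higher in SE for 5 of 6 tested, and Sox9 was higher in NE. Blood and endothelium markers were higher in SE for 4 of 5 tested, all 4 of them globin genes, and Tek did not pass. Heart markers were higher in SE for 2 of 3 tested (Nkx2-5 and Myl4), and Myl7 and Tbx20 were detected on no array. Amnion and extraembryonic mesoderm markers were higher in SE for 3 of 4 tested (Ahnak, Igf2 and Bmp2). Of that list Hsd11b2 was higher in NE, and Postn and Hand1 were detected on no array. Igf2 was detected on all arrays of both tissues, with mean signals of 17407.5 in SE and 4794.1 in NE. The paper describes BMP ligands as expressed in SE only. Whether Ahnak, Igf2 and Bmp2 came from amnion or from the surface ectoderm cells themselves was not tested. Of 4 endoderm and yolk sac markers tested 2 were higher in NE (Foxa1 and Foxa2) and 1 in SE (Amn), and Apoa1 did not pass. Afp, Apob and Cer1 were detected on no array. Whether Foxa1 and Foxa2 came from endoderm or from the neural cells themselves was not tested. No Hox gene was called higher in SE beside these.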

How the data were processed

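Total RNA of 3 SE and 3 NE pools was amplified, labelled with biotin and hybridised to Illumina arrays. The authors scanned the arrays and used BeadStudio, of no stated version. The deposited table holds for each probe a signal intensity on a linear scale, not normalized, and a detection p-value against negative controls. The deposited scaled intensity values are these signals times 1 constant per array (0.966 to 1.07) and were an alternative. Arrays have no read depth, and their number limits the precision. Adjusted p-values are Benjamini-Hochberg values from limma 3.58.1 (R 4.3.3; neqc with offset 16, lmFit, eBayes). A probe was tested if its detection p was under 0.05 on 3 or more arrays. A positive log2 difference is higher in SE. A gene was taken by its tested probe with the highest mean log2 value. An "at least" fold sets a tissue in which no array detected the probe at the lowest signal detected there, or at its own signal where that was higher.

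Probe symbols came from the platform annotation, updated through Entrez identifiers: 34885 probes had 1 symbol, 18 several and 10378 none. Probe sequences were not used here. RefSeq (GRCm38.p6) gave gene order and promoter windows. The rule for naming was that Hox genes with a probe detected on at least 3 arrays are given array by array, those on fewer arrays by name, and the others by range. Of each other list, counts and up to 4 tested members with the largest difference are given; further genes named there (Cyp26a1 among the trunk markers, Egr2, Cdx1, undetected genes and the flanking genes) were chosen after their values were seen. Members and lists were chosen with earlier results of these data known. The replicates are separate pools. Alternatives changed the background correction, offset, scaling, filter, detection threshold, replicate block and arrays included. Plots were drawn with matplotlib 3.10.9.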

Additional observations from a re-analysis of the deposited data

How the results depend on the processing

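The count of Hox genes higher in NE, 1, became 0 without background correction, with offset 50, in the deposited scaled values, over probes detected on all 6 arrays and with a detection p under 0.01; over the 2 last sets Hoxa7 was not tested. Leaving out 1 array at a time gave 0 to 1, with 0 without NE replicate 1, 2 or 3. The count higher in SE, 0, ranged from 0 to 1, the 1 being Hoxa13 without NE replicate 1. Median centring, no filter and the choice of any tested probe of a gene, added after seeing the data, left both counts at 0 and 1. Median centring moved the median log2 difference of all tested probes from -0.02 to -0.09. With the replicate block the counts were 0 and 1. Same-numbered arrays did not deviate together (r from -0.037 to -0.020 over probes), so the numbers were not used as pairs here, although the study compared SE with NE within each replicate number. Hox genes detected on all SE arrays, 2, became 1 with a detection p under 0.01 (Hoxa13) and 5 on at least 2 of 3 arrays, with 2 to 5 when 1 array was left out, 5 without SE replicate 1. Those on all NE arrays, 2, became 0 and 5, with 2 to 4 when 1 array was left out, 4 without NE replicate 2. The sign of differences that did not pass turned in these cases: Hoxa3 -0.065 without SE replicate 3 (-0.065 to 0.17 with 1 array left out); Hoxa13 probe B 0.045 in scaled values, 0.14 without SE replicate 3 and 0.015 without NE replicate 1 (-0.12 to 0.14); Hoxb2 0.0042 without background correction, 0.058 in scaled values, 0.11 without SE replicate 1, 0.015 without NE replicate 1 and 0.13 without NE replicate 3 (-0.17 to 0.13); Hoxc10 -0.01 without SE replicate 1 and -0.21 without NE replicate 2 (-0.21 to 0.26). Causes were not tested. Signals this near to background have little room to show a difference, and with 3 pools a tissue a small one can be missed.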
